A study of Mus musculus with 8 samples.

Results

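The genes described here are 36 parts of the autophagy machinery, followed in mouse brain through 6 steps from the start of an autophagosome to the capture of its cargo. They were chosen by gene name, by a rule that uses no measured value although results of these data were already known, and every array probe annotated to 1 of these gene symbols was taken, older symbols of the same gene included. Probes were found for 33 of the 36 genes, 38 probes in all out of 23473 probes on the array, and 5 genes (Becn1, Pik3r4, Atg2b, Wipi2 and Atg4c) had 2 probes each. Atg4d, Gabarapl2 and Optn had no annotated probe and were not analysed here.

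Trehalose is a sugar of 2 linked glucose units, and the study asked how its intake bears on brain metabolism. RNA of 8 male C57Bl/6J mice aged 9 weeks was measured, each mouse on its own one-colour array (Cy5): 2 controls that drank water and were taken at day 0, 3 mice that had trehalose for 1 day, and 3 that had it for 10 days. All mice had acclimatized for 1 week in cages of 3, were fasted for 6 h and were perfused before the brain was removed, so the fast is shared by every group, controls included. The labels name cortex as the tissue and the series' design text a left hemisphere, and the dose of trehalose is not stated in the sources used here. Water mice were taken at day 0 only, so trehalose and the time of sampling cannot be told apart.

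Macroautophagy encloses cytoplasm in a double membrane, the autophagosome, and delivers it to lysosomes. The ULK1 kinase complex starts the process, the class III phosphatidylinositol 3-kinase complex marks the site with its lipid, ATG9 and ATG2 bring membrane, and a pair of ubiquitin-like conjugation systems attach proteins of the ATG8 family (the LC3 and GABARAP proteins) to it. Receptors such as p62 and NBR1 then tether ubiquitinated cargo to the ATG8 proteins, and neurons, which do not divide, depend on this route to clear aggregates and damaged organelles. The activity of the pathway is set largely by phosphorylation, lipidation and degradation of these proteins, none of which an array of transcripts measures.

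A probe counted as measured where its spot exceeded the mean of the blank spots by 2 SD, and was tested if it did so on at least 2 of the 8 arrays. Of the 38 autophagy probes, 37 were above this limit on all 8 arrays and were tested, out of 21583 probes tested in all. The exception was the second Wipi2 probe, above the limit on 0 of 8 arrays, which gives no level for that probe. On each array 86.3% to 92.1% of all probes passed the limit, and the median probe spot was 2.45 to 2.87 times the blank mean. Of 33 probes for markers of brain regions and cell types, 32 were above the limit on all 8 arrays, the exception being Tcf7l2 of the thalamus list on 0 of 8. Since most probes of the array pass this limit, detection alone does not say which brain regions the samples held. The log2 of the summed thalamic markers was 11.09 to 11.55 after 1 day of trehalose against 10.85 to 11.05 in the controls, and 11.17 to 11.39 after 10 days against the same controls. The summed striatal markers spanned 11.57 to 11.94 in the controls, 10.53 to 11.78 after 1 day and 11.41 to 11.65 after 10 days. The part of these region differences in the values below was not tested, and in a whole-tissue sample fewer cells of a type and less RNA per cell cannot be told apart.

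The autophagy transcripts stayed close to their control levels at both times. After 1 day of trehalose the 37 probes lay between 0.19 log2 units below and 0.19 above the controls (Map1lc3a at -0.19, Pik3c3 at 0.19), with a median of -0.014 against -0.0003 over all 21583 probes. After 10 days they lay between -0.34 (the second Pik3r4 probe) and 0.088 (Ambra1), with a median of -0.018 against -0.0017 over all probes. Of the 37 probes, 31 lay within 0.1 log2 units of control in each of these 2 comparisons, on a scale that compresses the change of dim probes, as set out below. Both use the same 2 control arrays, so their changes are not independent of each other.

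By limma, with Benjamini-Hochberg adjustment over all tested probes, 0 of the 37 autophagy probes passed an adjusted p of 0.05 after 1 day against control, after 10 days against control, at 10 days against 1 day, or with both trehalose groups joined against control, where 0% of all probes passed in each. Their lowest adjusted p was 0.9998. At an unadjusted p of 0.05, 1 of 37 autophagy probes (2.70%) passed in each of the 4, beside 3.65% of all probes after 1 day, 2% after 10 days, 3.5% at 10 days against 1 day and 2.63% for both times joined. That probe was Nbr1 in the 3 comparisons with control and Atg13 at 10 days against 1 day. A count of 1 probe cannot place the members' share above or below the background in any of the 4 comparisons.

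The intervals bound the size of what could have been missed. The 95% confidence interval lay wholly within 1.5-fold in either direction for 36 of 37 autophagy probes in each of the 4 comparisons, beside 98.7% of all probes after 1 day, 98.9% after 10 days, 99% at 10 days against 1 day and 99.2% for both times joined. The exception each time was the second Pik3r4 probe. These bounds are on the scale used here, where an offset of 50 was added to each intensity before the log, which compresses the change of a dim probe. Of the 37 tested probes, 8 had a median spot under 3 times the blank mean, and their bounds understate what could have been missed. Ambra1, at 1.84 times, moved from 0.088 to 0.27 at 10 days with the blank mean subtracted. The compression did not stop at 3 times the blank mean: Wipi1, at 3.01 times, moved from 0.075 to 0.14.

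**Figure D1:**
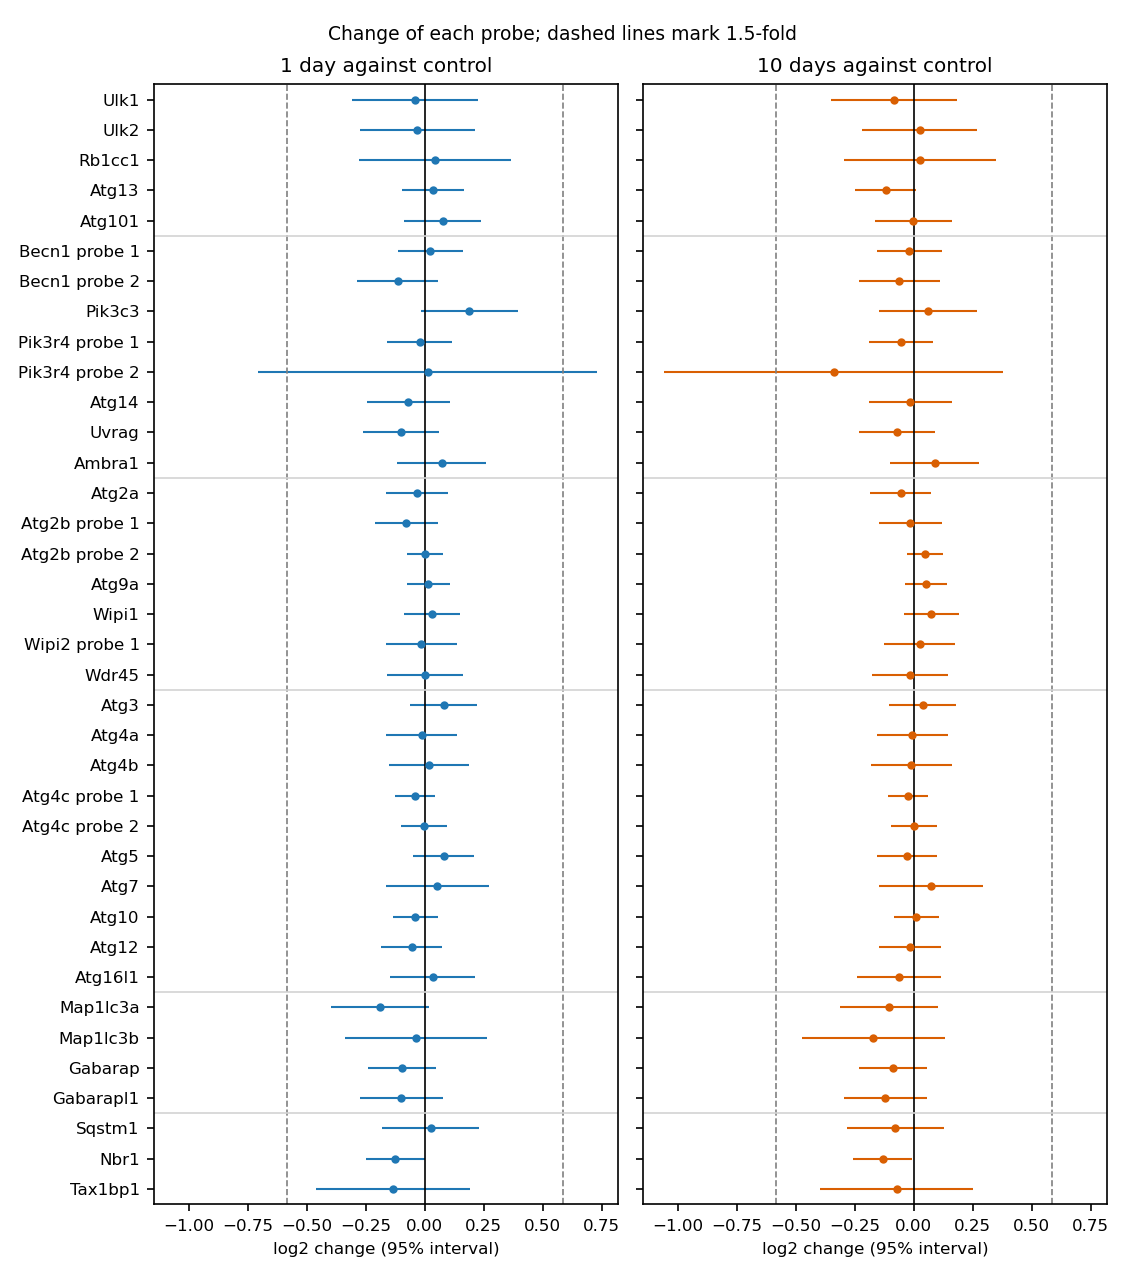
Log2 change of each of the 37 tested autophagy probes (points) with its 95% confidence interval from limma (bars) after 1 day (left) and 10 days (right) of trehalose against the 2 control arrays, on the horizontal axes, grouped by step from initiation at the top to receptors at the bottom. Dashed lines mark 1.5-fold; 36 of the 37 intervals lie between them in each panel, the second Pik3r4 probe being the exception.

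Among the initiation genes, Ulk1 and Ulk2 encode the kinases that start autophagy, Rb1cc1 encodes their scaffold FIP200, and Atg13 and Atg101 encode the partners that join kinase and scaffold. The median of these 5 probes was 0.034 log2 units after 1 day and -0.0021 after 10 days, with 3 and 2 of 5 above 0. Atg13 had the lowest p of the F test over the 3 groups among all autophagy probes (unadjusted p = 0.0390, limma, adjusted p = 1.0). Its log2 intensity was 9.41 and 9.29 in the controls, 9.46, 9.37 and 9.33 after 1 day, and 9.28, 9.21 and 9.20 after 10 days. All 3 mice at 10 days lay below all 3 mice at 1 day and below both controls, while the mice at 1 day overlapped the controls.

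The 10-day value of Atg13 was 0.15 log2 units below that at 1 day (-0.15, SE 0.050, 95% interval -0.27 to -0.038, unadjusted p = 0.0160 and adjusted p = 0.9998 by limma), a ratio of 0.899. Against control, Atg13 stood at 0.034 (SE 0.056) after 1 day and -0.12 (SE 0.056, unadjusted p = 0.0662) after 10 days. The 10-day change of Atg13 was -0.060 without the first control and -0.18 without the second. Atg101, the next in this step, measured 8.26 and 8.08 in the controls, 8.24, 8.30 and 8.19 after 1 day, and 8.10, 8.14 and 8.27 after 10 days, so that all 3 groups overlapped. Ulk1 measured 8.77 in both controls, 8.62, 8.59 and 8.96 after 1 day and 8.54, 8.74 and 8.76 after 10 days. The 10-day mice all lay below the controls on this scale, but the change of -0.085 was smaller than its SE of 0.11. In the values processed by the authors these groups overlapped. Ulk1 read 133.13, 150.6 and 160.77 there after 10 days, against 160.14 and 148.45 in the controls. Ulk2 and Rb1cc1 stood within 0.042 of control at both times.

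In nucleation, Pik3c3 encodes the lipid kinase VPS34, Pik3r4 its regulatory subunit VPS15, Becn1 the core subunit beclin 1, Atg14 the subunit of the complex that acts in autophagosome formation, Uvrag an alternative to Atg14 and Ambra1 a beclin 1 partner. The 8 probes had medians of -0.0053 after 1 day and -0.038 after 10 days, with 4 and 2 of 8 above 0. Pik3c3 measured 8.95 and 8.99 in the controls, 9.01, 9.18 and 9.28 after 1 day, and 8.98, 9.16 and 8.95 after 10 days. The 3 mice at 1 day all lay above both controls, the lowest of them by a small margin, and the mice at 10 days overlapped the controls. The change of Pik3c3 at 1 day was 0.19 (SE 0.089, 95% interval -0.017 to 0.40, unadjusted p = 0.0676 by limma), and at 10 days it was 0.059 (SE 0.089).

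The second Becn1 probe, with the next lowest F test p of this step, measured 6.95 and 6.86 in the controls, 6.77, 6.90 and 6.71 after 1 day and 6.73, 6.90 and 6.91 after 10 days. Its groups overlapped, and its change at 1 day (-0.12, SE 0.074) had the opposite sign to that of the first Becn1 probe (0.024). The widest spread of any autophagy probe belonged to the second Pik3r4 probe, at 8.60 and 8.40 in the controls, 8.53, 8.36 and 8.66 after 1 day and 8.51, 8.54 and 7.43 after 10 days. One mouse stood apart: the third mouse at 10 days had a spot intensity of 151 where the other 7 arrays had 301.2 to 367.1. Without it the 10-day change was 0.027 in place of -0.34 (SE 0.31). The first Pik3r4 probe read 7.23 in that mouse, the lowest of its 8 values, which ran up to 7.43.

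For the supply of membrane, Atg9a encodes the transmembrane scramblase of the vesicles that seed the membrane, Atg2a and Atg2b encode lipid transfer proteins, and Wipi1, Wipi2 and Wdr45 encode the propeller proteins that read the lipid made by VPS34. The 7 tested probes had medians of 0.0010 after 1 day and 0.025 after 10 days, 4 of 7 being above 0 at each time. The 2 probes with the lowest F test p were both of Atg2b. Its first probe measured 7.48 and 7.60 in the controls, 7.40, 7.53 and 7.44 after 1 day, and 7.45, 7.54 and 7.57 after 10 days, with overlap between all groups. The second measured 5.87 and 5.90 in the controls, 5.90, 5.88 and 5.87 after 1 day, and 5.93, 5.91 and 5.95 after 10 days. All 3 mice at 10 days were above all others on this second probe, yet by only 0.047 (SE 0.033) over control, and the first probe stood at -0.014.

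That second Atg2b probe was the dimmest of those tested, at 1.18 times the blank mean, and the size of its change depended on how the blank level was treated. The same 10-day difference was 0.047 with the offset of 50, 0.11 with an offset of 16, 0.40 with the blank mean subtracted and 0.49 in the authors' own processed table. Atg9a, at 1.35 times the blank mean, likewise stood at 0.052 with the offset of 50, 0.11 with the smaller offset, 0.32 with the blank mean subtracted and 0.35 in the authors' table. None of these values passed an adjusted p of 0.05 by limma. Wipi1 was above both controls in all 3 mice at 10 days (6.91, 6.84 and 6.85, against 6.76 and 6.83 in the controls), a change of 0.075 (SE 0.051). With the blank mean subtracted this change was 0.14. Wdr45, the gene of an X-linked neurodegeneration with brain iron accumulation, stayed within 0.02 of control at both times.

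In conjugation and lipidation, Atg7 encodes the activating enzyme of both conjugation systems, Atg3 and Atg10 their E2-like enzymes, Atg12, Atg5 and Atg16l1 the complex that directs ATG8 proteins to the membrane, and Atg4a, Atg4b and Atg4c the proteases that prime and release them. The medians of the 10 probes were 0.0067 after 1 day and -0.0088 after 10 days, 5 and 4 of 10 being above 0. Atg5 measured 7.72 and 7.56 in the controls, 7.73, 7.71 and 7.72 after 1 day, and 7.63, 7.55 and 7.64 after 10 days. The mice at 10 days were all below those at 1 day, by 0.11 on average (-0.11, SE 0.049, 95% interval -0.22 to 0.0053, unadjusted p = 0.0590 by limma), and 1 control sat with each trehalose group.

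Atg10 measured 7.74 and 7.83 in the controls, 7.74, 7.77 and 7.71 after 1 day, and 7.82, 7.78 and 7.78 after 10 days, the mice at 10 days lying above those at 1 day by 0.051 (SE 0.037). Atg3 was above both controls in all 3 mice at 1 day (6.04, 6.13 and 6.02, against 5.99 and 5.98 in the controls), a change of 0.080 (SE 0.061). It too was a dim probe, at 1.38 times the blank mean, and its change was 0.45 with the blank mean subtracted. The other 7 probes of this step, those of Atg4a, Atg4b, Atg4c, Atg7, Atg12 and Atg16l1, overlapped with control at both times. Atg7 reached 7.68 in the first mouse at 10 days, where its other 7 arrays read 7.39 to 7.60.

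Trehalose is widely studied as an activator of TFEB, a transcription factor that turns on lysosomal and autophagy genes by binding an E-box with the palindromic core CACGTG, so the start sites of these genes were searched for it. Promoter windows of 300 bases (250 before to 50 after each start, RefSeq, GRCm38.p6) were on hand for 30 of the 36 genes, those without being Map1lc3a, Atg16l1, Becn1, Rb1cc1, Pik3c3 and Atg12. CACGTG reads the same on both strands and occurred in 4 of 30 autophagy genes (13.3%), beside 8.09% of the 27025 genes with a window. A longer E-box with CACGTG at its centre was also searched, and was in 0 of 30 autophagy genes beside 0.37% of all genes. It is so rare that a count of 0 in 30 cannot place the autophagy genes above or below the background. The stretches around CACGTG are shown for the 4 genes with this core E-box in a window, 3 of them in the conjugation step. The windows of Atg3 and Atg14 start at the outermost start of the gene and that of Atg5 within 17 bases of it, while the Atg7 window lies at an alternative start 27969 bases inside the annotated gene. Each is written 5′ to 3′ on the strand of its gene, with CACGTG in capitals.
Atg3, chr16:45158705-45158783, plus strand: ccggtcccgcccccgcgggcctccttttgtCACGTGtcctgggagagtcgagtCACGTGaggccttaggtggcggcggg
Atg5, chr10:44268295-44268350, plus strand: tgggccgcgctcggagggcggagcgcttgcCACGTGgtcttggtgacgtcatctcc
Atg7, chr6:114670934-114670989, plus strand: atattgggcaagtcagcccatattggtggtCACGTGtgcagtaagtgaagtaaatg
Atg14, chr14:47568410-47568465, minus strand: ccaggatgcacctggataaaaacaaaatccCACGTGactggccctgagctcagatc

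The core began 94 and 71 bases before the start of the window's transcript for Atg3, 14 before it for Atg5, 132 before it for Atg7 and 1 before it for Atg14. The changes of these genes against control after 1 day were 0.080 for Atg3, 0.080 for Atg5, 0.052 for Atg7 and -0.071 for Atg14. After 10 days they were 0.037 for Atg3, -0.029 for Atg5, 0.073 for Atg7 and -0.015 for Atg14, so Atg5 had opposite signs at the 2 times, and each of the 8 intervals of 95% included 0. All 3 mice at 1 day lay above the controls for Atg3 and below them for Atg14, and the other genes overlapped. The GC box core GGGCGG, searched on both strands, was in 20 of 30 (66.7%) beside 38.2% of all genes, CCAAT in 9 of 30 (30%) beside 41.1%, and the median GC content of the windows was 59.7% beside 52.7%. These are matches of letters in the windows and not measured binding sites.

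In the ATG8 family, Map1lc3a and Map1lc3b encode the LC3 proteins that line the growing membrane, and Gabarap and Gabarapl1 encode members of the GABARAP branch, which also acts in vesicle traffic and in autophagosome closure. All 4 probes measured lower with trehalose than in control at both times, by 0.037 to 0.19 log2 units after 1 day and 0.089 to 0.17 after 10 days, with medians of -0.098 and -0.11, and none passed the test. Over all probes 49.7% were above 0 after 1 day and 48.6% after 10 days. At 10 days against 1 day 2 of the 4 were above 0. The count of 4 below 0 held under 16 of 19 alternative settings at 1 day and 18 of 19 at 10 days. The exceptions had 1 probe above 0 at 1 day (with a replicate block, without the second control or without the second mouse at 1 day) and 2 probes above 0 at 10 days (with the local background column subtracted). Some of the 19 settings could not move these values, so their agreement was fixed in advance. These were the lifted filter, trend and robust variances, a fit of only the groups compared, and omission of an array outside the comparison. The size was less steady than the sign: the 1-day median was -0.15 without the first control and -0.054 with median scaling, and the 10-day median was -0.070 without the second control and -0.062 with the local background column.

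Map1lc3a measured 11.35 and 11.42 in the controls, 11.31, 11.26 and 11.01 after 1 day and 11.35, 11.21 and 11.28 after 10 days. All 3 mice at 1 day were below both controls, the third by far the most, and the highest of the 10-day mice overlapped the lower control. The change of Map1lc3a at 1 day was -0.19 (SE 0.089, 95% interval -0.40 to 0.017, unadjusted p = 0.0667 by limma) and at 10 days -0.11 (SE 0.089). Gabarapl1 measured 12.44 and 12.53 in the controls, 12.49, 12.44 and 12.23 after 1 day and 12.32, 12.37 and 12.40 after 10 days. The mice at 10 days were all below both controls, by 0.12 on average (-0.12, SE 0.076), and again the third mouse at 1 day gave the lowest value of all 8.

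Gabarap measured 10.81 and 10.83 in the controls, 10.68, 10.78 and 10.71 after 1 day and 10.67, 10.85 and 10.67 after 10 days. The mice at 1 day were all below both controls (-0.097, SE 0.061), while 1 of the 3 mice at 10 days was above them. Map1lc3b measured 10.15 and 10.38 in the controls, 10.22, 10.15 and 10.31 after 1 day, and 10.22, 10.24 and 9.82 after 10 days. Its trehalose values fell within the span of the controls or at its edge except in the third mouse at 10 days, the same mouse that gave the low value on the second Pik3r4 probe. The 10-day change of Map1lc3b was -0.17 (SE 0.13). Summed neuronal markers had a log2 level of 13.96 to 14.02 after 1 day and 13.88 to 14.06 after 10 days, against 14.05 to 14.09 in the controls. This was not particular to neurons. Summed astrocyte markers had 11.09 to 11.17 after 1 day and 11.17 to 11.24 after 10 days, against 11.24 to 11.28. The median change of the 4 astrocyte probes was 0.0026 after 1 day and 0.023 after 10 days. The part of these markers in the ATG8 values was not tested. Within the neuronal sum, Syt1 read 11.60 in the third mouse at 10 days, and 12.37 and 12.31 in the first and second. At 10 days Rbfox3, Syt1, Slc17a7 and Gad1 averaged below the controls and Snap25 above them (12.65 against 12.57).

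**Figure D2:**
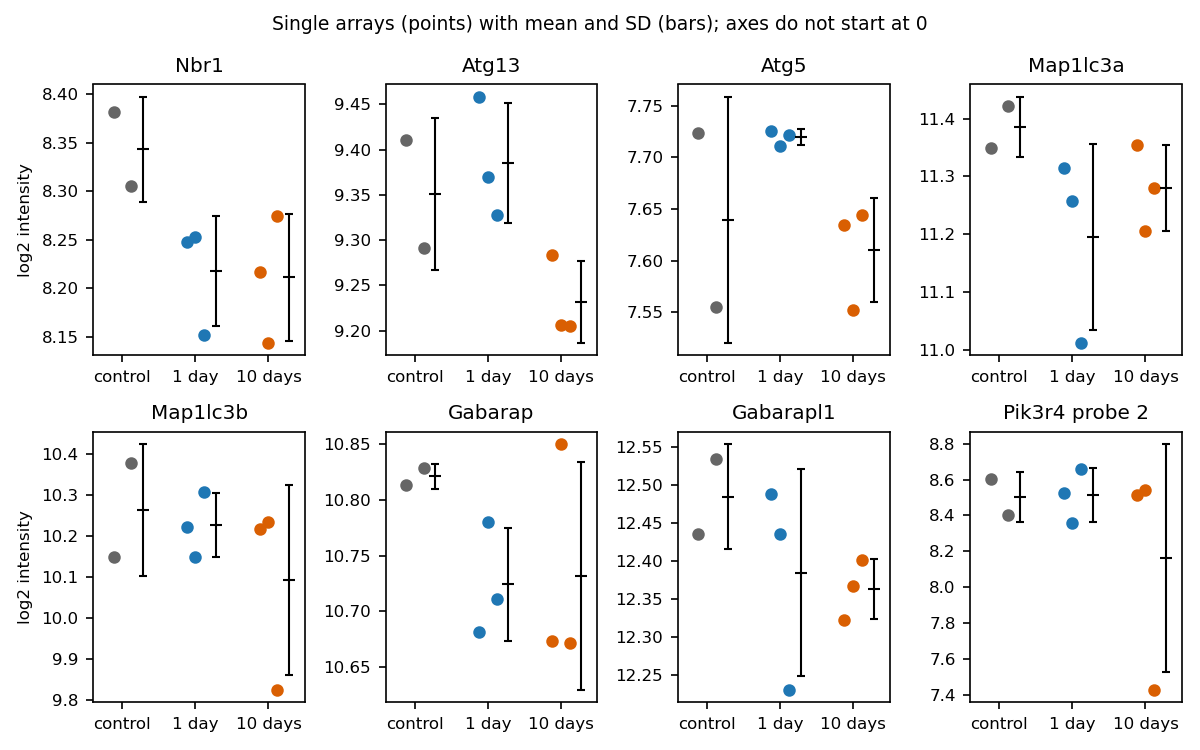
Log2 intensity (vertical axes, which do not start at 0) on each array (points) of 8 autophagy probes in the control, 1-day and 10-day mice, with the group mean and SD (bars, n = 2, 3 and 3). On the scale used here, Nbr1 is below both controls in all 6 trehalose mice, and Atg13 and Atg5 at 10 days are below their values at 1 day. One mouse at 10 days stands far below the rest on the second Pik3r4 probe.

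Of the cargo receptors, Sqstm1 encodes p62, Nbr1 a related cargo receptor, and Tax1bp1 a receptor that works with both on ubiquitinated cargo. The 3 probes had medians of -0.13 after 1 day and -0.079 after 10 days, 1 and 0 of 3 being above 0. Nbr1 measured 8.38 and 8.30 in the controls, 8.25, 8.25 and 8.15 after 1 day, and 8.22, 8.14 and 8.27 after 10 days. All 6 trehalose mice were below both controls, and the 2 trehalose groups covered the same span.

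With both times joined, Nbr1 stood at -0.13 (SE 0.048, 95% interval -0.24 to -0.017, unadjusted p = 0.0289 and adjusted p = 0.9999 by limma). On the scale used here, Nbr1 was the only autophagy probe of 37 (2.70%) with all trehalose mice on one side of the controls. Over all probes 4.73% were so on either side and 1.98% below. The ratio to control was 0.917 after 1 day and 0.913 after 10 days. With the first control array left out, the joined change of Nbr1 was -0.090, and with the second left out it was -0.17.

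Sqstm1 measured 11.13 and 11.17 in the controls, 11.30, 11.24 and 10.99 after 1 day and 11.11, 11.11 and 10.996 after 10 days. The mice at 10 days were all below the controls, by 0.079 on average (-0.079, SE 0.089), and those at 1 day lay on both sides of them. Tax1bp1 measured 10.86 and 11.03 in the controls, 10.71, 10.91 and 10.80 after 1 day, and 10.57, 11.04 and 11.004 after 10 days. The first mouse at 10 days was the lowest of all, and both trehalose groups overlapped the controls.

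Groups that did not overlap on the scale used here were counted as a description of how far single mice carry these changes. The counts were near the background except after 10 days, and groups called apart above are so on this scale. After 1 day 6 of 37 probes (16.2%) had trehalose and control values wholly apart, beside 18.2% of all probes, 2 of them above the controls (Pik3c3 and Atg3, beside 8.97% of all probes) and 4 below (Atg14, Map1lc3a, Gabarap and Nbr1, beside 9.19%). After 10 days 9 of 37 (24.3%) were apart, beside 13.4%. Of these, Ambra1, Wipi1, Atg9a and the second Atg2b probe were above the controls, beside 6.46% of all probes, and Ulk1, Atg13, Gabarapl1, Sqstm1 and Nbr1 were below, beside 6.97%. Of these 9 probes, only Atg9a and Gabarapl1 also stood wholly apart from the controls in the values processed by the authors. The share of all probes apart in those values was not counted. At 10 days against 1 day 4 of 37 (10.8%) were apart, beside 8.39%: Atg10 and the second Atg2b probe above, beside 4%, and Atg13 and Atg5 below, beside 4.39%. With 2 controls, 1 array sets the edge of the control group in each case.

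**Figure D3:**
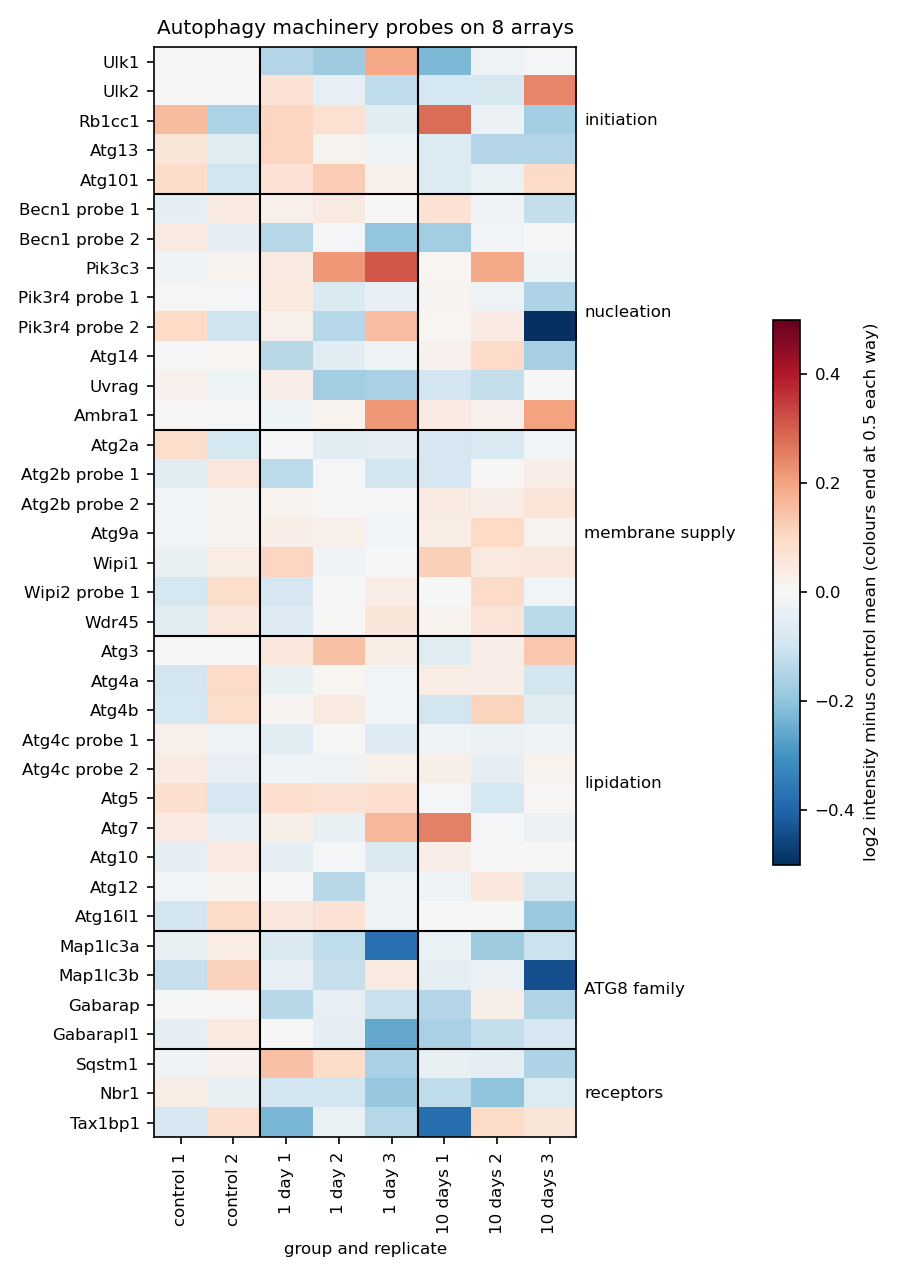
Log2 intensity minus the mean of the 2 controls (colour, ending at 0.5 in each direction) for the 37 tested autophagy probes (rows, grouped by step) on the 8 arrays (columns: control, 1 day and 10 days, with the replicate number). The 4 rows of the ATG8 family are mostly below control with trehalose, no whole step stands out in the columns of a group, and the darkest cell is the second Pik3r4 probe in the third mouse at 10 days, whose value lies beyond the end of the scale.

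On the scale used here, the autophagy probes varied somewhat more between mice of a group than the array as a whole. The offset added before the log also compresses the spread of dim probes, and the sets compared differ in brightness. The median probe spot was 2.45 to 2.87 times the blank mean over the arrays, while 8 of the 37 autophagy probes had a median under 3 times. The part of brightness in the difference in spread was not tested. The median pooled SD within groups was 0.084 log2 units over the 37 probes, against 0.064 over all 21583, and the median range over the 8 arrays was 0.21 against 0.19. The SD within groups ran from 0.016 for the second Atg2b probe to 0.42 for the second Pik3r4 probe, and after that probe it was widest for Tax1bp1 (0.19), Rb1cc1 (0.18) and Map1lc3b (0.17). The median deviation of the 37 probes from their own means over the 8 arrays lay between -0.012 and 0.040 on each array. Within the nucleation step alone, the third mouse at 10 days had a median deviation of -0.12.

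Part of this spread followed a number from 1 to 8, here the description number, which stands at the start of every sample description and whose meaning the labels do not give. It runs through the groups (1 day, 10 days and control in turn), so that its values are spread over the groups. Numbers 1 to 3 are replicate 1 of each group, 4 to 6 replicate 2 and 7 to 8 replicate 3, so a trend with the number and a difference between replicate sets cannot be told apart. With the group in the model, 7 of 37 autophagy probes (18.9%) had an unadjusted p under 0.05 for this number by limma, beside 10.9% of all probes, and 0 passed the adjusted threshold, where 0% of all probes passed. Of the 7, Ulk1, Ambra1 and Tax1bp1 were higher at higher numbers, beside 5.47% of all probes, and Rb1cc1, Atg13, Sqstm1 and the first Pik3r4 probe were lower, beside 5.4%.

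Rb1cc1 had the lowest p, with a slope of -0.057 log2 units per step of the number (SE 0.013, unadjusted p = 0.00343 and adjusted p = 0.235). In the order of the number its values were 8.31, 8.48, 8.36, 8.28, 8.17, 8.04, 8.15 and 8.03, so the first 4 arrays all lay above the last 4 whatever the group. Ulk1 ran the other way at 0.041 per step (SE 0.014, unadjusted p = 0.0207), with its highest value on array 7. For Ambra1, at 0.029 per step (SE 0.0097, unadjusted p = 0.0200), arrays 7 and 8 read 6.46 and 6.44 and the other 6 read 6.22 to 6.28. Those 2 arrays are replicate 3 of each trehalose group, and the controls have no replicate 3. With the number as a covariate, Nbr1 after 10 days stood at -0.13 and Atg13 at 10 days against 1 day at -0.13, and 0 autophagy probes passed an adjusted p of 0.05.

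**Figure D4:**
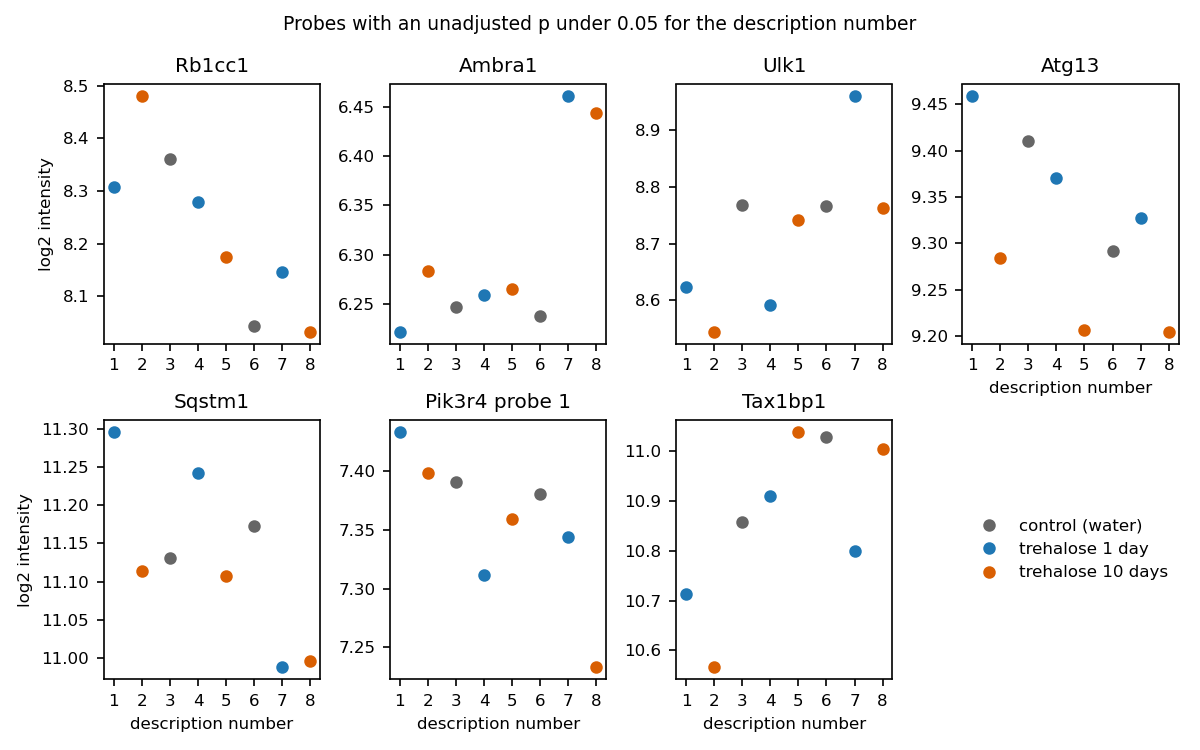
Log2 intensity (vertical axes, which do not start at 0) of the 7 autophagy probes with an unadjusted p under 0.05 for the number, against the description number (horizontal axes, 1 to 8), coloured by group. Rb1cc1 is higher on arrays 1 to 4 than on arrays 5 to 8 in every group, and Ambra1 is highest on arrays 7 and 8.

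Partners and later steps of the pathway were read from 3 further lists: regulators of initiation and nucleation, other selective autophagy receptors, and the factors that fuse autophagosomes with lysosomes. Of 47 genes listed, 43 had a probe, and 0 of their 48 tested probes passed an adjusted p of 0.05 by limma in any of the 4 comparisons. At an unadjusted p of 0.05 there were 2 of 48 after 1 day, 3 of 48 after 10 days, 3 of 48 at 10 days against 1 day and 3 of 48 for both times joined (4.17% after 1 day and 6.25% in each of the others), beside 3.65% of all probes after 1 day, 2% after 10 days, 3.5% at 10 days against 1 day and 2.63% for both times joined. The median change of the 48 was -0.010 after 1 day and -0.016 after 10 days, with 22 and 19 of 48 above 0 (45.8% and 39.6%), beside 49.7% and 48.6% of all probes.

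Among receptors, Phb2, an inner mitochondrial membrane protein that serves as a mitophagy receptor, measured 9.77, 9.84 and 9.85 after 1 day against 9.65 and 9.67 in the controls, and the groups did not overlap (change 0.16, SE 0.047, unadjusted p = 0.0091 and adjusted p = 1.0 by limma). Its 10-day values (9.82, 9.82 and 9.71) were also above both controls. Tollip, an endosomal adaptor for ubiquitinated cargo, measured 9.64, 9.65 and 9.63 after 10 days against 9.71 and 9.84 in the controls, all 3 mice being lower (-0.14, SE 0.045, unadjusted p = 0.0172). Its 1-day values (9.700, 9.708 and 9.651) were also below both controls, the highest by a small margin (9.713 in the lower control). Of the fusion factors, Vps11, a subunit of the HOPS tether, measured 8.89, 8.81 and 9.08 at 10 days against 8.79, 8.74 and 8.55 at 1 day (0.23, SE 0.086, unadjusted p = 0.0270). The 10-day values of Vps11 spanned the controls (8.83 and 8.96), and its 1-day values were below both. Epg5, a tether of autophagosomes to late endosomes and lysosomes, stood at -0.096 (SE 0.045) at 10 days against 1 day. Rubcn, which encodes a negative regulator of the VPS34 complex, measured 7.80, 7.79 and 7.97 at 10 days against 7.77, 7.68 and 7.71 at 1 day (0.13, SE 0.056, unadjusted p = 0.0475). One of the probes of Tmem41b, an ER scramblase of early autophagy, stood at -0.11 (SE 0.057) after 1 day against control.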

How the data were processed

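Per the labels' protocols, Trizol-extracted RNA was amplified to amino allyl aRNA and carried Cy5. Scanner files deposited by the authors give the median intensity of each spot joined over 3 gains, per the file headers. The authors also deposited a linear processed intensity per probe, with its background step, scaling and centring not stated; it was used as an alternative. No scanner software or scan date is given in the labels or headers. From the spot medians of all 27456 spots (2736 blank), normexp correction with an offset of 50, quantile normalization, log2 and averaging of repeated spots were computed here, without the local background column, which follows the spots (r = 0.943 to 0.985). All 8 arrays were fitted in limma 3.58.1 (R 4.3.3) with 3 groups and 5 residual degrees of freedom, and p-values were adjusted by Benjamini-Hochberg over 21583 probes. Confidence intervals are at 95%. Cage mates are not identified, so p-values measure the spread between these samples, and the number of arrays limits precision. Platform symbols were updated through RefSeq gene identifiers (GRCm38.p6) for 20556 of 20690 annotated probes and through accessions for 9, and 125 kept the platform's symbol. The members and lists were chosen with earlier results of these data known. Array values are given for the 2 probes of each step with the lowest F test p, for probes with an unadjusted p under 0.05 and for the ATG8 family, and other genes were named by the 2 lowest p of each list. Other genes or arrays named were chosen after their values were seen. Probe sequences and probe positions were not used here. Alternatives covered background, scaling, filter, variance model, array weights, the replicate number, the description number and each array left out.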

Additional observations from a re-analysis of the deposited data

How the results depend on the processing

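The count of autophagy probes past an adjusted p of 0.05 by limma was 0 under every alternative run, in the 4 comparisons and for the description number. Over all probes, where the count was 0 in each, it ranged from 0 to 2 with single arrays left out for 1 day against control, 10 days against control and both times joined; the 2 were Sult4a1 and Ifitm3, and both came without the first control. With trend and robust variances 1 probe passed (Il1rl2) after 10 days against control, 1 at 10 days against 1 day and 10 for the description number, none of them an autophagy probe. With the blank mean subtracted, 1 (Il1rl2) passed at 10 days against 1 day. The cause of these differences was not tested. With a replicate block 0 probes passed in the 4 comparisons. The replicate numbers were not taken to pair the mice: same-numbered arrays correlated at -0.026 to 0.26 over 7 pairs, although 7 of 8 arrays correlated best with their own number. Of 148 changes (37 probes in 4 comparisons), the sign turned in 0 with a smaller offset, 1 with the blank mean subtracted, 5 with median scaling, 12 with array weights, 13 with the block, 30 in the table processed by the authors, 57 with subtraction of local background and 12 to 27 with 1 array left out. Leaving out an array could not move the 37 changes of the comparison that does not use it. The local background column was also the 1 setting of 19 that turned Nbr1 after 1 day (0.12, range otherwise down to -0.20). Several of the 19, such as trend and robust variances or a 10-day array left out, could not have moved that value. Atg13 at 10 days against 1 day kept its sign, from -0.67 to -0.088. Several of the 19, such as a control left out or trend and robust variances, could not have moved that difference either. The low number of control arrays and the dim probes limit what these comparisons can resolve.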

Other observations

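The third mouse at 10 days of trehalose held the lowest of the 8 values on 11 of the 37 autophagy probes and the highest on 2, while the other 7 arrays each held the lowest on 2 to 7 and the highest on 2 to 8. Over all 21583 probes that array held the lowest value on 19.1%, also the highest share of the 8, and the other arrays on 8.87% to 13.6%. Of the 11 autophagy probes, 5 belonged to the VPS34 complex, whose Pik3c3 and Atg14 probes, both Pik3r4 probes and first Becn1 probe were lowest in that mouse. Pik3c3 was so by a small margin (8.947 against 8.951 in the first control). In the table processed by the authors, only the second Pik3r4 probe of these 5 was lowest in that mouse, so this pattern depended on the processing. The other probes of the nucleation step were not low there: the second Becn1 probe read 6.91, Uvrag 7.54 and Ambra1 6.44, each among the 3 highest of its 8 values. Becn1 and Uvrag also encode subunits of VPS34 complexes, so the low values did not cover all probes of these subunits. The remaining lowest values were those of Rb1cc1, Atg13, Wdr45, Atg16l1, Map1lc3b and Gabarap, several of them by a small margin (Gabarap at 10.672 against 10.674 in the first mouse at 10 days). It was also the array with the highest share of probes above the blank limit (92.1%), and leaving it out turned the sign of 25 of the 148 autophagy changes, none of which had passed the test. These counts were made after the values were seen and carry no test.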
